A study of Homo sapiens with 45 samples.

Results

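The genes described here are 10 that encode the machinery that compacts, holds together and releases sister chromatids. They are SMC2, SMC4, NCAPH, NCAPD2, NCAPG and NCAPG2 of condensin, RAD21 of cohesin, the cohesin regulator CDCA5, and ESPL1 and PTTG1, which encode separase and securin. They were chosen by name, with earlier results of these data known, as 10 of the 19775 genes measured. They have 16 of the 54675 probe sets on the arrays. Where a gene had several probe sets, the brightest on average over the 45 arrays stood for it. By that probe set 8 of the 10 lay above the noise limit, a log2 intensity of 8.59, set at 1.5 times the median signal of the spiked-in control 3' BioB. NCAPH and NCAPG2, with median log2 intensities of 8.05 and 8.31, lay below it.

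Condensin complexes are rings built on the ATPases SMC2 and SMC4, which compact chromosomes in mitosis. Condensin I adds the subunits encoded by NCAPH, NCAPD2 and NCAPG, and condensin II adds those encoded by NCAPH2, NCAPD3 and NCAPG2. Cohesin holds sister chromatids together through its kleisin subunit RAD21, sororin (CDCA5) protects that link, and at anaphase separase (ESPL1), freed from its inhibitor securin (PTTG1), cuts RAD21. Genes of this kind are known for mRNA levels that rise towards mitosis in dividing cells.

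The data are 45 Affymetrix U133 plus 2.0 arrays of A375, an established human melanoma cell line grown in culture. On 39 arrays the cells had received a targeting siRNA pool against 1 of 39 genes, on 3 arrays control siRNA and on 3 arrays no siRNA (untreated), and RNA was taken after 48 hours. Each targeting pool was used on 1 array, so no pool has a replicate. The 39 arrays were made in batches KD1 (9 arrays), KD3 (7 arrays) and KD2 (23 arrays), each with different pools, and no source used here says in which batch the arrays with control siRNA or no siRNA were run. Differences between batches and between the pools used in them cannot be told apart, and every siRNA array is set here against the median of its own batch. A whole culture was measured each time, so that fewer cells expressing a gene and less of its RNA per cell cannot be told apart. Nothing states that the 3 arrays of a group came from separate cultures, and their spread may be technical.

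Of the 39 targets, 37 had a probe set that the annotation names for that gene alone. Each of these targets was lowest on the array of its own siRNA within its batch. The log2 difference from the median of the other arrays of the batch was -0.69 to -2.27 (the pools had been selected for strong knockdown). CDKN2C and HSF2 had no such probe set and were left out here, though the study reports knockdown of both. Array medians lay between 5.06 and 5.15. SOX10, S100B and MITF of the melanocyte lineage and the mesenchymal marker VIM were above the noise limit, while the pigment genes PMEL, MLANA and TYR and all 6 markers of other cell types (KRT5, KRT14, EPCAM, PTPRC, PECAM1 and HBB) were below it. Control siRNA array 3 and untreated array 3 were nearly the same array (SD of their log2 difference 0.0838, against 0.180 for the next closest pair of arrays).

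Promoter sequences were examined because the 10 genes varied together, as given below. RefSeq promoters in GRCh38.p14, from 250 bases before to 50 bases after the first listed start site, were at hand for 9 of the 10 genes and were set against those of 15842 protein-coding genes. The cell cycle homology region TTTGAA, searched on both strands (TTCAAA on the other), was present in the promoters of 6 of the 9, namely SMC2, SMC4, NCAPD2, NCAPG, NCAPG2 and ESPL1, and in 12.1% of all. The CCAAT box, read as CCAAT or ATTGG, was present in 4 of the 9 (NCAPH, NCAPD2, ESPL1 and PTTG1) and in 36.4% of all. Of E2F sites, only exact matches to TTTCCCGC and TTTGGCGC were searched, and sequences close to these were not counted. TTTCCCGC or its complement was present in CDCA5 alone and in 2.18% of all, and TTTGGCGC in none of the 9 and in 0.89% of all. The variants TTTAAA (NCAPH and PTTG1, 9.7% of all) and TTCGAA (CDCA5, 1.57% of all) were chosen after the sequences had been seen. The 120 bases before the start site are shown for 6 genes that hold these elements in different arrangements, in lower case with the matches in capitals.
SMC4 (chr3:160399530-160399649, plus strand): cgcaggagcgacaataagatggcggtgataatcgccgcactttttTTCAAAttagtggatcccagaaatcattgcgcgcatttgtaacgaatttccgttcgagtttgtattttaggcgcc
NCAPG (chr4:17810859-17810978, plus strand): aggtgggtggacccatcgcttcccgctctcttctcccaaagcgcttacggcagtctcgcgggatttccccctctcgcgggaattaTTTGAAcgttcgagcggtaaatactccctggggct
NCAPD2 (chr12:6493982-6494101, plus strand): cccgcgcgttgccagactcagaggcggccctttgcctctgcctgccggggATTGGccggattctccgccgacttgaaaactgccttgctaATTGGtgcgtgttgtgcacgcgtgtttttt
CDCA5 (chr11:65084041-65084160, minus strand): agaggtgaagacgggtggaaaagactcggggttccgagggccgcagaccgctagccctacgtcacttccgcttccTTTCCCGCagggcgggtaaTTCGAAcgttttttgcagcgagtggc
ESPL1 (chr12:53268179-53268298, plus strand): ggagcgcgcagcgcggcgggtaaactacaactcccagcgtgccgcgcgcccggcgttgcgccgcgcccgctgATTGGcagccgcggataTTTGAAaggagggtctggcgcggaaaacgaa
PTTG1 (chr5:160421735-160421854, plus strand): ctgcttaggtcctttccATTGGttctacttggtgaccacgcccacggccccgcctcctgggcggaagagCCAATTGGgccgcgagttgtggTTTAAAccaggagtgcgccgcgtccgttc

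In ESPL1 a CCAAT box on the reverse strand began at base -48 and was followed by TTTGAA at base -31. PTTG1 had overlapping CCAAT boxes on opposite strands at bases -51 and -48, another at base -103, and TTTAAA at base -29. CDCA5 had TTTCCCGC at base -45 and TTCGAA at base -26. NCAPG had TTTGAA at base -35, and SMC4 had its reverse complement at base -75. In SMC2, not shown, the reverse complement began at base -3 and ran across the start site. In NCAPG2 TTTGAA began at base 36, after the start site. NCAPH had TTTAAA at base 33, also after it, and a CCAAT box at base -112. The matched letters are a description of these windows and do not show that a factor binds there. In NCAPD2 the CCAAT boxes shown began at bases -70 and -30, and its TTTGAA at base -145 and other CCAAT boxes at bases -170 and -199 lay outside the bases printed.

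The mRNAs of the 10 genes rose and fell together over the siRNA arrays. After each probe set had been centred on its median in each batch, Spearman's rho over the 39 arrays was positive for 45 of the 45 pairs of genes, with a median of 0.687, and was at least 0.5 for 38 pairs. By comparison, 0.515% of all pairs of genes on the arrays, and 1.71% of pairs of genes above the noise limit, reached a rho of 0.5. The arrays are shared by all pairs, and the pairs are not independent of one another. Because the genes were chosen with earlier results of these data known, the shares here and below describe the list and do not test it. The 36 pairs without RAD21 had a rho between 0.515 and 0.875, and the 9 pairs with RAD21 between 0.320 and 0.573.

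The same question was put to limma 3.58.1, with the level of 1 member as a covariate beside batch in each of 10 fits over all probe sets. With Benjamini-Hochberg adjustment over the other 54674 probe sets, 37 of the 45 pairs passed in both directions of fit at an adjusted p under 0.05, comprising all 36 without RAD21 and the pair of RAD21 and SMC2. With SMC2 as covariate all 9 other members were positively related, where 1.85% of all probe sets were. With SMC4 it was 8 of 9 (1.43% of all probe sets), with NCAPH 8 (3.27%), with NCAPD2 8 (1.05%), with NCAPG 8 (2.69%) and with NCAPG2 8 (2.79%). With CDCA5 it was 8 (2.09%), with ESPL1 8 (1.23%) and with PTTG1 8 (1.11%). With RAD21 as covariate 1 of 9 was positively related, against 0.62% of all probe sets. Without a batch term 24 of the 45 pairs passed in both directions of fit.

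Within batches the strength of this relation differed. The median rho over the 45 pairs was 0.3 over the 9 arrays of KD1, where 40 pairs were positive and 14 reached 0.5. It was 0.893 over the 7 arrays of KD3, where all 45 reached 0.5, and 0.747 over the 23 arrays of KD2, where 37 did. Some members varied less in KD1 than in KD2, such as CDCA5 (SD 0.063 against 0.237) and PTTG1 (0.029 against 0.170). Others varied more, such as NCAPH (0.329 against 0.252) and RAD21 (0.258 against 0.106). A narrow spread limits what rho can show in a batch. Whether the batches differ in the strength of the relation was not tested.

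**Figure D1:**
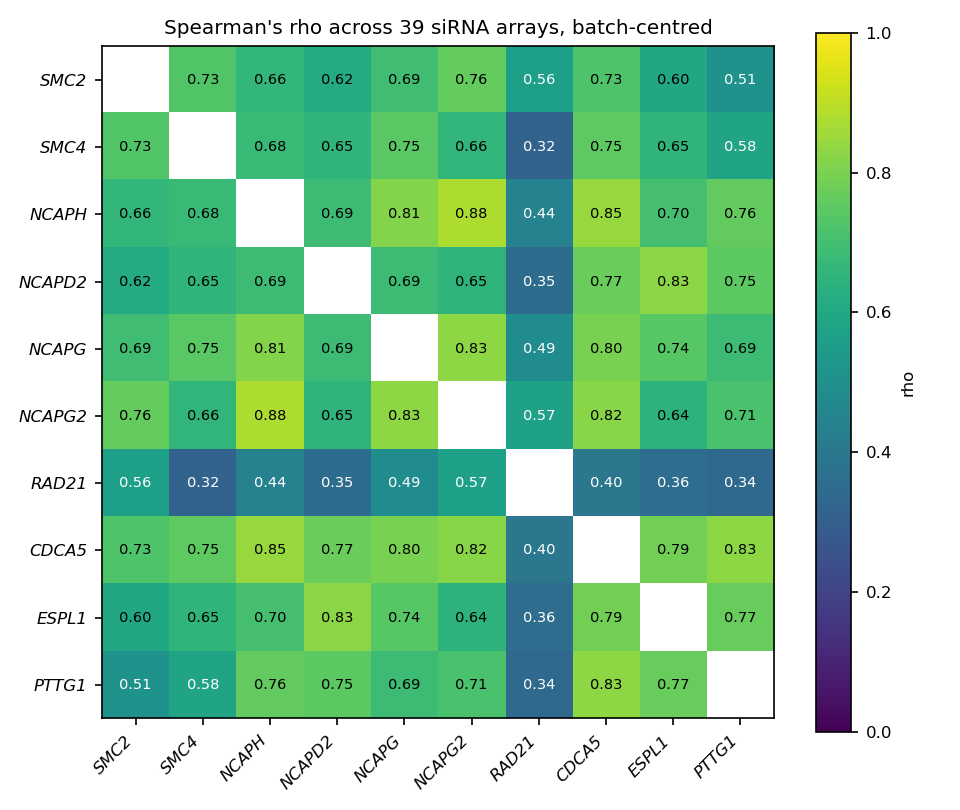
Spearman's rho between the 10 genes (both axes) over the 39 targeting siRNA arrays after batch centring, with the value in each cell and the colour from 0 to 1. The row and column of RAD21 hold values from 0.32 to 0.57, and all other cells lie between 0.51 and 0.88.

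The condensin core genes SMC2 and SMC4 encode the ATPase arms of both condensin complexes. They were related to each other with a rho of 0.729 (r = 0.777, each with p = 1e-05, the smallest that the 100000 permutations within batches could give) and an adjusted p of 4.71e-05 in limma with SMC2 as covariate. Without the arrays of MITF and MCM2 siRNA, the 2 farthest from the median of SMC2, r was 0.766. Their rho was -0.0833 within KD1, 0.964 within KD3 and 0.859 within KD2, so that the pooled relation was not seen among the 9 arrays of KD1. SMC4 varied little there (SD 0.077, against 0.180 in KD3 and 0.164 in KD2), so this value cannot show that the relation was absent. Relative to its batch median SMC2 ranged from -0.45 (MITF siRNA) to 0.31 (RBL2 siRNA), and SMC4 from -0.37 (MITF siRNA) to 0.27 (CCNA2 siRNA). The genes above the noise limit whose pattern over the 39 arrays was most like that of SMC2 were USP1, CDK1 and CKAP2 (rho 0.826, 0.825 and 0.814). For SMC4 they were the mitotic kinesins KIF11 and KIF14 and the kinetochore gene CENPF (0.870, 0.863 and 0.844).

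Of the condensin I subunits, NCAPH encodes the kleisin that bridges the SMC heads, and NCAPD2 and NCAPG encode the HEAT-repeat subunits. NCAPH and NCAPG had among the widest ranges of the 10 genes over the arrays, with an SD of 0.28 and 0.25 on the log2 scale, and NCAPD2 a smaller SD of 0.17. NCAPH lay between -0.63 (MAP2K1 siRNA) and 0.51 (CDC2 siRNA), NCAPD2 between -0.38 (TCEA1 siRNA) and 0.31 (CCNB2 siRNA), and NCAPG between -0.71 (MAP2K1 siRNA) and 0.35 (RB1 siRNA). NCAPH and NCAPG were related to each other with an adjusted p of 2.25e-07, with NCAPH as covariate in limma. The nearest genes were PBK, AURKB and MCMBP for NCAPH (rho 0.921, 0.917 and 0.890), TACC3, KIF11 and KIF4A for NCAPD2 (0.783, 0.782 and 0.773), and CENPU, PBK and NUF2 for NCAPG (0.899, 0.894 and 0.888).

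The condensin II subunit gene NCAPG2 followed those of condensin I. Its rho with NCAPH of 0.875 was the highest of the 45 (r = 0.859, each with a permutation p of 1e-05, the smallest possible, and an adjusted p of 8.82e-09 in limma). Without the arrays of MAP2K1 and MITF siRNA r was 0.814, and within KD1, KD3 and KD2 rho was 0.783, 0.964 and 0.909. NCAPH and NCAPG2 are the 2 members below the noise limit. NCAPG2 ranged from -0.68 (MAP2K1 siRNA) to 0.49 (CCNA2 siRNA), and its nearest genes were CENPU, PBK and ZWINT (rho 0.921, 0.915 and 0.889). The other condensin II subunits, NCAPH2 (also below the noise limit) and NCAPD3 (above it), had median rho values with the 10 genes of 0.707 and 0.691. They passed as positive in 8 and in 10 of the 10 covariate fits.

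Cohesin's kleisin gene RAD21 was the member least like the others by the brightest probe sets, and how far it stood apart depended on the probe set. By the brighter probe set, 200608_s_at, its median rho with the 9 other members was 0.396, from 0.320 with SMC4 (permutation p = 0.0421, r = 0.247 with p = 0.0668) to 0.573 with NCAPG2 (permutation p = 0.00014, r = 0.420 with p = 0.00321). With the 2 most extreme arrays of SMC4 or of NCAPG2 left out, r was 0.237 and 0.395. Leaving out the 2 most extreme arrays of RAD21 itself, CDC2 and FOXO3A siRNA of KD1, raised r. It went from 0.255 to 0.430 with CDCA5, from 0.325 to 0.460 with ESPL1 and from 0.243 to 0.408 with PTTG1. For the other members only their own extreme arrays were left out. Within KD1, KD3 and KD2 the rho of RAD21 with SMC4 was -0.0167, 0.786 and 0.303, and with NCAPG2 0.567, 0.929 and 0.514. By the other, 200607_s_at, which was also above the noise limit, the median was 0.618 and all 9 values were between 0.538 and 0.733. In limma that probe set was positively related to 9 of the 9 other members (adjusted p between 0.000588 and 0.0411), where the brighter one was related to 1, SMC2 (adjusted p = 0.0202 with SMC2 as covariate, 0.0326 with RAD21). Each RAD21 probe set as covariate was positively related to a like share of all probe sets, 0.62% for the brighter and 0.679% for the other. The choice of the other probe set for this comparison was made after the data had been seen. The 2 RAD21 probe sets had a rho of 0.445 with each other, against 0.762 for the probe sets of SMC2, 0.937 for NCAPG and 0.899 for ESPL1. For SMC4 the brightest probe set had a rho of 0.814 with the second and 0.645 with the third, 215623_x_at, which lay below the noise limit and had a median rho of 0.399 with the 9 other members.

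The difference was visible on single arrays. On the array of CDC2 siRNA, which targets the mitotic kinase gene now named CDK1, the brighter RAD21 probe set was at -0.49 and the other at 0.13. With RB1 siRNA they were at 0.27 and -0.11. With MITF siRNA (-0.17 and -0.23), MCM2 siRNA (-0.19 and -0.19) and MAP2K1 siRNA (-0.12 and -0.15) they lay close together. These 2 arrays, on which they parted most, were of batch KD1, and the next, that of HDAC3 siRNA (0.18 and -0.15), was of KD2. Which transcripts each probe set detects was not analysed here. The genes nearest to the brighter RAD21 probe set were MTMR6, RAB7A and ACTL6A (rho 0.799, 0.787 and 0.777), none of which was nearest to any other member.

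**Figure D2:**
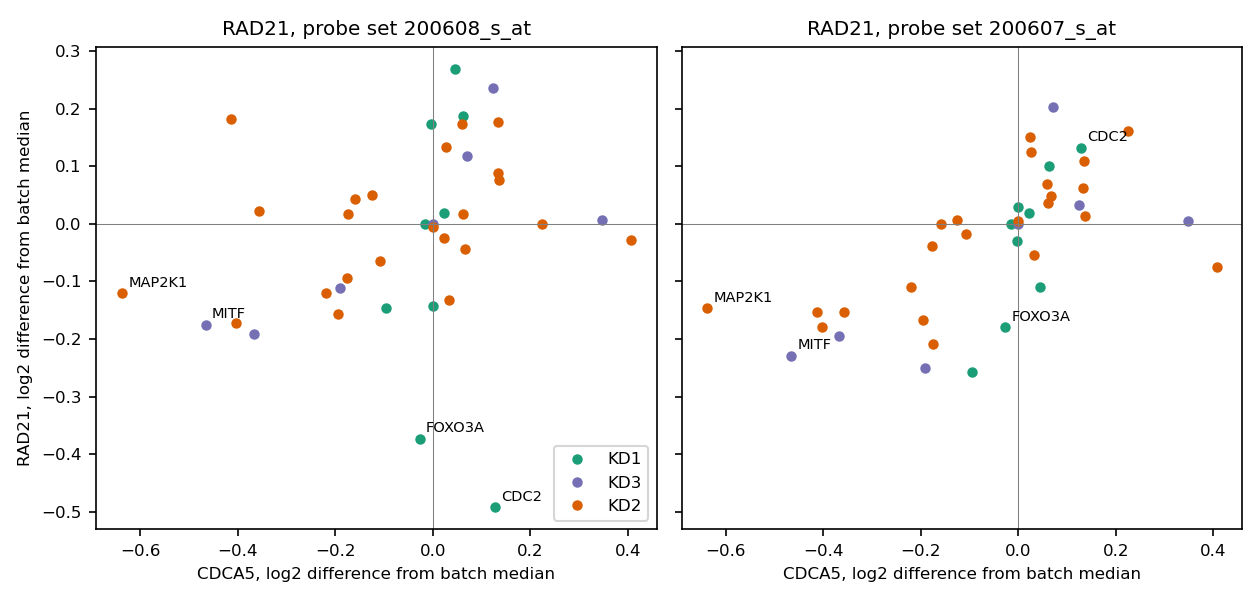
RAD21 (vertical axis) against CDCA5 (horizontal axis), both as log2 difference from the batch median, for the 39 targeting siRNA arrays coloured by batch, with the brighter RAD21 probe set on the left and the other on the right. The array of CDC2 siRNA lies at -0.49 on the left and at 0.13 on the right, and the array of FOXO3A siRNA at -0.37 and -0.18.

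CDCA5, which encodes sororin, had the highest median rho with the 9 other members, 0.789, and AURKB, FANCI and PBK were the genes nearest to it (0.906, 0.897 and 0.892). It ranged from -0.64 (MAP2K1 siRNA) to 0.41 (CCNA2 siRNA). ESPL1 (separase) and PTTG1 (securin), an enzyme and its inhibitor, rose and fell together, with a rho of 0.766 and r of 0.739 (permutation p = 1e-05 for each, adjusted p = 0.000131 in limma with ESPL1 as covariate). Without the arrays of MAP2K1 and MCM2 siRNA r was 0.711, and within KD1, KD3 and KD2 rho was 0.467, 0.929 and 0.779. ESPL1 ranged from -0.45 (MAP2K1 siRNA) to 0.36 (RB1 siRNA). PTTG1, with the narrowest range of the 10 genes, went from -0.35 (MAP2K1 siRNA) to 0.21 (AKT1 siRNA). Its only probe set, 203554_x_at, is of the kind that can bind related sequences, so that PTTG1 and its close copies may not be told apart by it. The genes nearest to ESPL1 were the mitotic kinesin gene KIF2C, AURKB and the helicase gene MCM2 (0.878, 0.862 and 0.859), and those nearest to PTTG1 were HJURP, AURKB and NUP85 (0.836, 0.835 and 0.830). AURKB, the mitotic kinase of the chromosomal passenger complex, and PBK, a mitotic kinase, were each among the 3 nearest genes of 4 members.

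On single arrays the differences were small. Of the 390 values of 10 genes on 39 arrays, 8 were a log2 difference of at least 0.5 from the batch median (1.41-fold), 7 of them lower and 1 higher, against 1.26% of the values of all genes and 0.732% of those of genes above the noise limit. NCAPH held 3 of the 8, the higher one included, and NCAPG2 2, and both genes lie below the noise limit. The rest were of NCAPG (2) and CDCA5 (1). All 10 genes were lower than their batch median on 8 arrays and higher on 8 others. Since the genes varied together, as given above, this count is not a separate result. The array of PIAS1 siRNA was itself the KD3 median for all 10. With 1 array per siRNA these differences have no replicate and no test.

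The array of MAP2K1 siRNA, directed at the kinase MEK1 of the ERK pathway, held the largest decreases. NCAPG was at -0.71, NCAPG2 at -0.68, CDCA5 at -0.64 and NCAPH at -0.63, so that 4 of the 10 genes were lower by at least 0.5, where 1.77% of all genes were. ESPL1 was at -0.45, PTTG1 at -0.35, SMC2 at -0.34, SMC4 at -0.30, NCAPD2 at -0.24 and RAD21 at -0.12. All 10 lay below the batch median, as did 47.3% of all genes. Their median was -0.40, against 0.00 for all genes. After normalisation and centring, the median of all genes lay between -0.019 and 0.017 on every array, so it says little about this one.

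On the array of MITF siRNA, directed at the melanocyte lineage factor, the median of the 10 genes was -0.41. All 10 were lower, against 41.2% of all genes. NCAPH (-0.58) and NCAPG (-0.57) were lower by at least 0.5, where 0.86% of all genes were, and RAD21 (-0.17) was the least so. The array of MCM2 siRNA, directed at a subunit of the replicative helicase, had a median of -0.35, with ESPL1 at -0.40, NCAPG at -0.39 and SMC2 at -0.37. All 10 were lower there, against 46.4% of all genes. On that array SMC4 was at -0.04. The array of siRNA against the checkpoint kinase gene CHEK1 came next (median -0.30), with 9 of 10 genes lower, against 49% of all genes, and RAD21 at 0.02.

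The highest medians were those of CCNA2, PIK3CB and RBL2 siRNA. With CCNA2 siRNA, directed at cyclin A2, the median was 0.24, with NCAPG2 at 0.49, CDCA5 at 0.41 and NCAPH at 0.40. PTTG1 (0.01) and RAD21 (-0.03) lay near the batch median there. Of the 10 genes 9 were higher, against 43% of all genes. With siRNA against the phosphoinositide kinase subunit gene PIK3CB the median was 0.20 and all 10 were higher (43.4% of all genes), with NCAPH at 0.33. With siRNA against RBL2, a pocket protein gene, it was 0.17 and all 10 were higher (50.9% of all genes), with SMC2 at 0.31. The array of RB1 siRNA had a median of 0.12, with ESPL1 at 0.36, NCAPG at 0.35 and PTTG1 at 0.00, and all 10 were above the batch median, as were 45.2% of all genes.

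**Figure D3:**
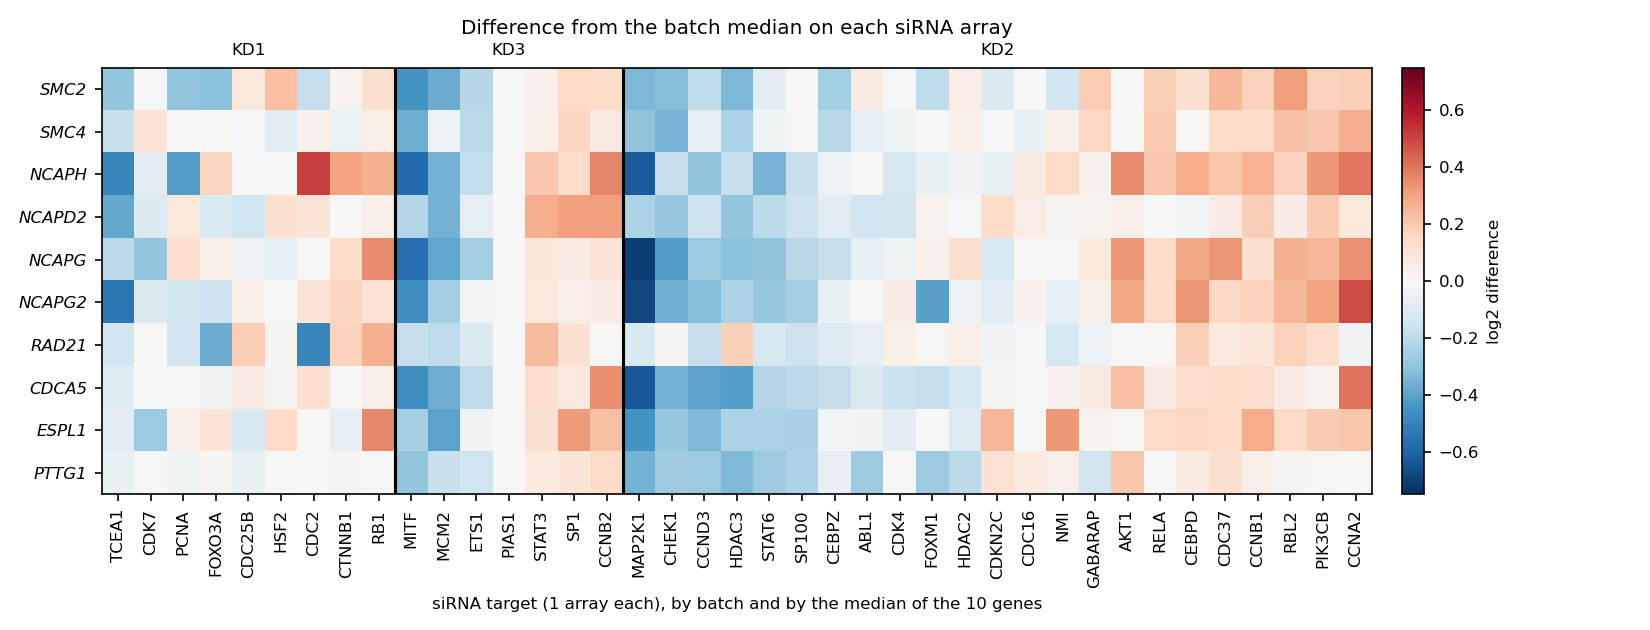
Log2 difference from the batch median of the 10 genes (rows) on the 39 targeting siRNA arrays (columns), in batches KD1, KD3 and KD2 and ordered within each by the median of the genes, from blue (lower) to red (higher). The darkest blue column is that of MAP2K1 siRNA, with NCAPG at -0.71, and CDC2 siRNA holds NCAPH at 0.51 beside RAD21 at -0.49.

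Arrays of siRNAs against regulators of mitosis gave mixed values. With FOXM1 siRNA, directed at a transcription factor of mitotic genes, NCAPG2 was at -0.41, PTTG1 at -0.27, SMC2 at -0.19 and CDCA5 at -0.17, while the other 6 lay between -0.05 and 0.04. On the array of CDC2 siRNA NCAPH was at 0.51, the only value of the 390 that was higher by at least 0.5, and the median of the 10 was 0.02. With siRNA against CCNB1 and CCNB2, which encode B-type cyclins, the medians were 0.16 and 0.14, and all 10 genes were higher on each array, against 46.2% and 44.6% of all genes. With siRNA against the phosphatase gene CDC25B the values lay between -0.15 and 0.19. With siRNA against CDC16, a subunit gene of the complex that marks securin for destruction, all 10 lay between -0.05 and 0.07, and PTTG1 was at 0.07. With siRNA against the transcription elongation factor gene TCEA1, NCAPG2 was at -0.55 and NCAPH at -0.49, and all 10 were lower, against 44.7% of all genes.

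Other mitotic chromosome genes, and partners in the same complexes, were related to the members to differing degrees. The mitotic chromosome genes TOP2A, KIF4A, MKI67 and AURKB had median rho values with the 10 genes of 0.720, 0.742, 0.758 and 0.840, and each passed in 9 of the 10 covariate fits. Over all other genes above the noise limit the corresponding median was 0.080, and 0.557 was exceeded by the highest 5% of them. Of the other cohesin subunits, SMC1A was at 0.580, STAG1 at 0.546, SMC3 at 0.455 and STAG2 at 0.346, and they passed in 4, 4, 2 and 1 of the 10 fits. The cohesin core gene most like the brighter RAD21 probe set was SMC1A (rho 0.747), which passed with RAD21 as covariate, while SMC3, STAG1 and STAG2 did not.

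Regulators of cohesin, each judged by its brightest probe set alone, were divided. PDS5B, which binds cohesin on chromatin, passed in 7 of the 10 fits (median rho 0.618) and its paralogue PDS5A in 1 (0.444). NIPBL and MAU2, which load cohesin, passed in none, with median rho values of -0.061 and -0.001, nor did WAPL, which releases it (0.359). MAU2 and WAPL had further probe sets above the noise limit that were not compared with the members. Within batches the SD was 0.095 for WAPL and 0.110 for MAU2, against 0.161 for NIPBL. How far a small spread lowered these rho values was not tested. The cohesin deacetylase gene HDAC8, below the noise limit, also passed in none, and its 10 rho values were all negative (-0.454 to -0.236, median -0.306). Of the acetyltransferase genes, ESCO2 passed in 8 of the 10 fits (0.630) and ESCO1 in none (-0.017). SGO2 passed in 8 and SGO1 in 2, both encoding shugoshins that guard centromeric cohesin. ESCO2, SGO1 and SGO2 lay below the noise limit. None of the meiotic cohesin genes REC8, STAG3, SMC1B and RAD21L1, all below it, passed in any fit. In the related SMC5/6 complex SMC6 and NSMCE4A passed in 9 fits each, and SMC5 and NSMCE1 in none.

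**Figure D4:**
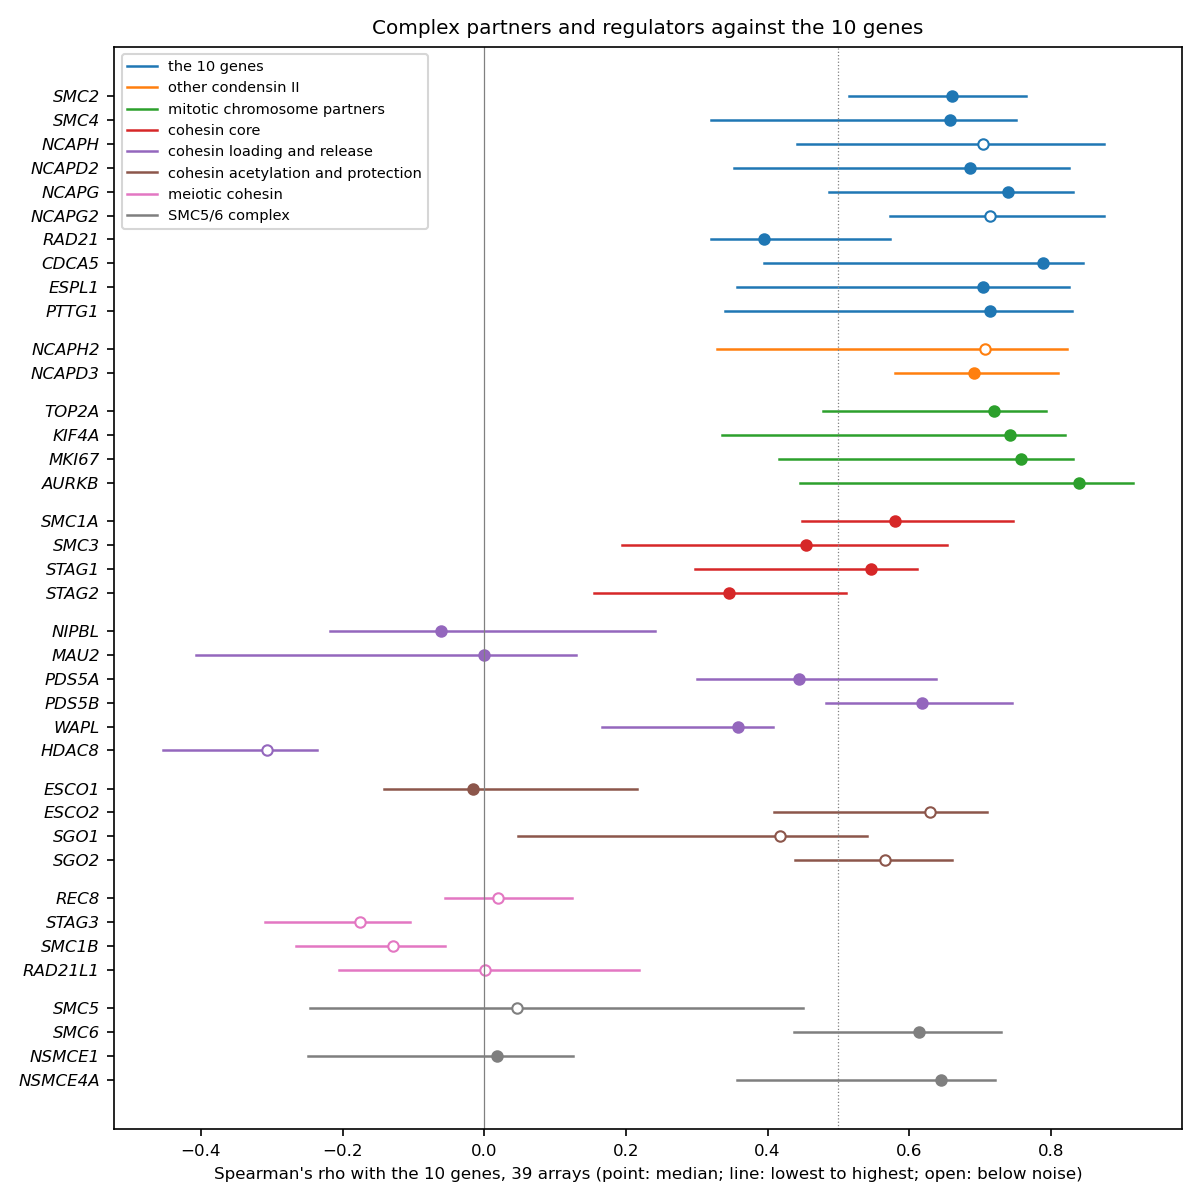
Spearman's rho of each gene (rows) with the 10 members over the 39 arrays (horizontal axis), as the median (point) and the lowest to highest value (line), with open points for genes below the noise limit and colours for the groups of genes. The mitotic chromosome genes lie between 0.72 and 0.84, whereas NIPBL, MAU2 and ESCO1 lie near 0.

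Among marker genes, S100B was related to the members in the opposite direction in 6 of the 10 fits, with a median rho of -0.505, while MITF, SOX10 and VIM passed in none. Of the 6 markers of other cell types, all below the noise limit, HBB passed as negative in 4 fits and KRT14 as positive in 3. Their part in the relation among the members was not tested.

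Levels differed between the batches, gene by gene. In limma on all 54675 probe sets, 5 of the 10 genes differed between KD1 and KD2 (3 higher, 2 lower), where 44.5% of all probe sets did, and 5 between KD3 and KD2 (2 higher, 3 lower), where 41.8% did. These shares are close to those of all probe sets.

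CDCA5 had the largest of these differences. Its log2 intensity ranged from 7.69 over a median of 8.16 to 8.51 on the 7 arrays of KD3, and from 8.31 over 8.95 to 9.36 on the 23 arrays of KD2. The ranges overlapped, and the difference was -0.79 ± 0.09 (SE, adjusted p = 5.74e-10). ESPL1 (7.91, 8.31 and 8.62 on KD3 arrays as lowest, median and highest, against 8.45, 8.90 and 9.23 on KD2 arrays) fell by 0.59 ± 0.09 (adjusted p = 2.44e-07), and NCAPD2 fell by 0.40 ± 0.07 (adjusted p = 1.29e-05). NCAPG (0.30 ± 0.10, adjusted p = 0.0157) and SMC4 (0.18 ± 0.07, adjusted p = 0.0231) were higher in KD3. By a second probe set of these genes, the differences were 0.22 (adjusted p = 0.136) and 0.11 (adjusted p = 0.27).

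In KD1, PTTG1 had log2 intensities of 12.56, 12.62 and 12.64 as lowest, median and highest of 9 arrays, against 11.92, 12.28 and 12.48 over the 23 arrays of KD2. It was the only member of which the ranges did not overlap, as happened for 7.68% of genes between KD1 and KD2 and for 17.6% between KD3 and KD2. Its difference was 0.42 ± 0.06 (adjusted p = 1.17e-07). ESPL1 was also higher in KD1, by 0.44 ± 0.08 (adjusted p = 1.34e-05), as was NCAPD2, by 0.27 ± 0.07 (adjusted p = 0.000887). RAD21 by its brighter probe set was lower in KD1, with 10.34, 10.83 and 11.10 as lowest, median and highest, against 10.95, 11.13 and 11.31 in KD2 (difference -0.35 ± 0.06, adjusted p = 7.84e-06). By its other probe set RAD21 was higher in KD1 (0.13 ± 0.05, adjusted p = 0.0366), so no direction can be given for this gene. SMC4 was lower in KD1 by both probe sets above the noise limit (-0.18 and -0.23, adjusted p = 0.0136 and 0.00549).

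Other subunit genes differed between batches as well. NCAPD3 of condensin II was at -0.93 in KD3 against KD2 (adjusted p = 2.53e-13). NCAPH2, also of condensin II, was at 0.53 (adjusted p = 3.36e-10) but lay below the noise limit by all its probe sets. By the brightest of them its mean log2 intensities in KD3 and KD2 were 7.16 and 6.64. By the others they were 6.57 and 6.43, 6.46 and 6.35, 5.09 and 5.36, and 5.36 and 5.21. The summed intensity of the 6 markers of other cell types was 306 to 491 in KD1, 196 to 240 in KD3 and 274 to 374 in KD2. Its part in these differences was not tested.

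No difference between control siRNA and untreated cells passed the test in these genes. In limma on 3 arrays of each, 0 of the 10 genes and 0% of the 54675 probe sets passed at an adjusted p under 0.05 (97 probe sets, none of them a member's main probe set, at an unadjusted p under 0.05). SMC2 had log2 intensities of 8.69, 8.59 and 8.60 on control siRNA arrays, against 8.81, 8.90 and 8.73 on untreated arrays. It was the only member for which the groups did not overlap, as happened for 2.94% of all genes, and the difference of -0.19 ± 0.12 (SE) had an adjusted p of 0.9999 and, with the array number as a block, 0.874. CDCA5 had log2 intensities of 9.21, 8.86 and 8.16 on control siRNA arrays, against 8.71, 9.14 and 8.10 on untreated arrays. The groups overlapped, and array 3 was the lowest of each.

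No difference between all targeting siRNA arrays and control siRNA arrays passed the test in these genes either. This fit had no batch term, since the batch of the control siRNA arrays is not known, and it carries the differences between batches given above. In limma 0 of the 10 genes and 0% of all probe sets passed (1767 probe sets at an unadjusted p under 0.05, no member's main probe set among them), and the median of the 10 differences was 0.03 (-0.05 without control siRNA array 3). With KD2 arrays alone against control siRNA arrays, 0 of the 10 genes and 2747 of all probe sets passed. Over the 10 genes, control siRNA array 1 differed least from the KD1 medians (mean size of the log2 difference 0.114), array 2 from the KD2 medians (0.0837) and array 3 from the KD3 medians (0.0939). Untreated arrays 1 and 2 differed least from the KD1 medians (0.226 and 0.160, against 0.307 and 0.182 for KD2), and array 3 from those of KD3 (0.0853). For untreated array 2 the values for KD1 and KD2 were close, and these distances over 10 genes do not place an array in a batch. The part of batch in the spread of these arrays was not tested. For CDCA5 the 39 targeting arrays ranged from 7.69 over a median of 8.95 to 9.36, against 9.21, 8.86 and 8.16 on control siRNA arrays. All 3 control siRNA arrays lay within the range of the targeting arrays for this gene, 1 near its lower and 1 near its upper end.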

How the data were processed

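RNA of A375 cells was hybridised to 45 Affymetrix U133 plus 2.0 arrays. The authors normalised the scans with RMA, whose version is not given in the sources used here. The deposited values are intensities on a linear scale and were turned into log2 here. The authors' scaling of each probe set to its batch median is not in the deposited values, so it was applied for correlations and single arrays. Conditions came from the labels and batches from the study's list of targets. The labels give 100 nM siRNA, while the study's methods give a lower concentration.

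Gene names came from the platform annotation, in which 41097 probe sets had 1 gene, 1801 several and 11777 none. Comparisons used limma 3.58.1 (R 4.3.3) on all probe sets with Benjamini-Hochberg adjustment, tested first on simulated data. Correlations and permutations (100000, within batches) used Python 3.11.15, numpy 2.4.6, pandas 2.3.3 and scipy 1.17.1. Arrays have no read depth. Their number and the signal over the noise limit bound the precision.

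Members and gene lists were chosen with earlier results of these data known. Named genes were the members, the genes of the lists, each member's 3 nearest genes above the noise limit, and a set of arrays made up of the 3 lowest and 3 highest, each member's extremes and those of mitotic and lineage regulators. The pairing of control siRNA and untreated arrays rests on their numbers, since same-numbered arrays deviated together (r = 0.580, 0.671 and 0.890).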

Additional observations from a re-analysis of the deposited data

How the results depend on the processing

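Values of genes below the noise limit, NCAPH and NCAPG2 among the members, are the least precise, and single arrays have no replicate. No call for the 10 genes between control siRNA and untreated arrays, or between targeting and control siRNA arrays, was gained under any alternative run, the replicate block, which also called 0 of all probe sets, included. Over all probe sets, targeting against control siRNA gave 2747 calls with KD2 arrays only, and between 0 and 13 when each control siRNA array was left out (13 without array 2, 1 without array 3). Restricting the tests to probe sets above the noise limit left 5425 calls for KD1 against KD2 and 5825 for KD3 against KD2, since fewer were tested. The number of related pairs of members was 24 without a batch term and 23 of 28 with the filter on noise, which removes NCAPH and NCAPG2 (22 of these 28 without it). Without batch centring 24 pairs had a rho of at least 0.5, and over all 45 arrays uncentred 22 did, with a median rho of 0.492. The cause was not tested.

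Of the 390 values on single arrays, 8 reached 0.5 against the batch median. This became 29 against the control siRNA mean, 26 against the median of all 39 arrays, and 13 against the other arrays of the batch, the last chosen after seeing the data. At a limit of 0.3 there were 61 and at 1 there were 0. By the second probe set, RAD21 was at 0.13 for KD1 against KD2 and SMC2, whose second probe set lies below the noise limit, at 0.059 for KD3 against KD2 (adjusted p = 0.649), both opposite in sign to the brighter probe set. SMC4 for KD3 against KD2 had an adjusted p of 0.0612 with quantile normalization. By the second probe set NCAPG and SMC4 lost their calls for KD3 against KD2, as given above, and RAD21 (KD3) and SMC2 (KD1) gained one.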
